A study of Homo sapiens with 10 samples.

Results

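The 10 genes described here encode Krüppel-like factors (KLF2, KLF3, KLF4, KLF5, KLF6, KLF7, KLF9, KLF10, KLF11 and KLF13), taken by gene symbol from tables of 20327 genes. Their RNA was measured in serum-starved hTERT RPE-1 cells, a wild-type human epithelial line from the retinal pigment epithelium that is kept dividing by telomerase, with and without merbarone, which inhibits topoisomerase II catalytically. The series deals with the control of RNA polymerase II pausing near promoters by DNA supercoiling. Cells of every group had been held for 48 h in 0.1% serum. A first experiment set 200 µM merbarone for 30 min against DMSO alone for the same time (3 libraries each). A second compared 200 µM merbarone for 2 h with cells labelled untreated, with no solvent named (2 libraries each). Polyadenylated RNA was sequenced from 150 ng of total RNA per library.

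KLF proteins bind GC-rich and CACCC elements through 3 zinc fingers at their C-terminal end, a domain that the family shares with the SP factors. The parts outside the fingers differ: KLF2, KLF4, KLF5, KLF6 and KLF7 carry activation domains, KLF3 recruits the CtBP corepressor, and KLF9, KLF10, KLF11 and KLF13 recruit SIN3A. Several members are early response genes that serum, stress or shear forces induce within minutes to hours, and in epithelia they are known for balancing growth arrest, differentiation and proliferation.

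Library totals ran from 26633780 to 38225538 reads in the 30 min experiment and from 11956652 to 13691014 reads in the 2 h experiment. Nothing in the labels says that replicates came from separate cultures, so p-values measure only the spread between these libraries, which may be technical. Of 9 pigment epithelium markers, RPE65, RLBP1, TYR, TYRP1 and TTR stayed below 0.1 RPKM (reads per kilobase of gene, scaled to the library total) in every library. The other 4 were detected: group means were 2.48 to 18.8 RPKM for BEST1, 4.10 to 4.87 for PMEL, 3.23 to 4.48 for OTX2 and 0.232 to 0.393 for MITF. The epithelial markers CDH1 and EPCAM also stayed below 0.1 RPKM in every library, while KRT7, KRT8, KRT18 and the mesenchymal markers VIM and FN1 were expressed. The endothelial markers CDH5, VWF and TEK, which would mark the cell type best known for KLF2 and KLF4, summed to at most 0.0095 RPKM in any library. In bulk RNA, more cells expressing a gene and more RNA per cell cannot be told apart.

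The promoters of 4 of the members that rose after 2 h are shown to place the elements marked upstream of their starts, among them the MEF2 element through which the ERK5 kinase pathway is known to drive KLF2. Each sequence gives the 250 bases before an annotated start in RefSeq (GRCh38.p14), 5′ to 3′ on the gene's strand. Capitals mark the MEF2 element in KLF2 (chr19:16324576-16324825, plus strand) and the TGACG core of the cAMP response element, read as CGTCA from the other strand, in KLF4 (chr9:107489770-107490019, minus strand). In KLF5 (the second of its annotated starts, chr13:73058755-73059004, plus strand) and KLF6 (chr10:3785210-3785459, minus strand) they mark CCAAT boxes, which in KLF6 read ATTGG.
KLF2: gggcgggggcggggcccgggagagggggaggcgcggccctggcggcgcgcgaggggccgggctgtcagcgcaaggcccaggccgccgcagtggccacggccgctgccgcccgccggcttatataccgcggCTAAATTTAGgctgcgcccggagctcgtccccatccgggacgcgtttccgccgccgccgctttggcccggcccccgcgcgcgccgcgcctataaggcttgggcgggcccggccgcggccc
KLF4: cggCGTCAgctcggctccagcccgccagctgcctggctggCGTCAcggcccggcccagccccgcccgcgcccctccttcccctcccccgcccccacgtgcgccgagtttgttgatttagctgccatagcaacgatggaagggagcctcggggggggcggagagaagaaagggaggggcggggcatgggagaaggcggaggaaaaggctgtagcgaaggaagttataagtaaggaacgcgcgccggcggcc
KLF5: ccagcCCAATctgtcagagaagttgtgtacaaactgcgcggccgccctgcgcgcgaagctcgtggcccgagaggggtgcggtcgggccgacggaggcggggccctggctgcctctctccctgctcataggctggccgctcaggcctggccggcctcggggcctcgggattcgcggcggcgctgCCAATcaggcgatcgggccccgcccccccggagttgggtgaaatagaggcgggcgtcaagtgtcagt
KLF6: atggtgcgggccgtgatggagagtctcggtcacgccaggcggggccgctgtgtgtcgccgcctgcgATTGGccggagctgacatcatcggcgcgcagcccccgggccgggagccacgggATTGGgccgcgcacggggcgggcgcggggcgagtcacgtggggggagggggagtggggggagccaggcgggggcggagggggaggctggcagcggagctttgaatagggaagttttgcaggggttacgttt

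The MEF2 element of KLF2 lay 120 to 111 bases before the start and was the only one in the 13 windows, of 300 bases each, found for 8 members (KLF3 and KLF10 are not shown). It occurred in 0.572% of 35116 windows of all genes, each covering 250 bases before and 50 after a start. The TGACG cores of KLF4 began 247 and 210 bases before its start. TGACG occurred in 4 member windows (of KLF4, KLF5, KLF11 and KLF13) and in 24.6% of all windows. The CCAAT boxes of KLF6 began 184 and 131 bases upstream and those of KLF5 245 and 67. A box stood in 6 member windows (of KLF5, KLF6, KLF7, KLF9 and KLF13) and in 34.6% of all. Both elements thus also stood before members that did not rise at 2 h, among them KLF13. A CArG box, the serum response factor element, was found for KLF7 alone among the members (1.29% of all windows), and the AP-1 site TGANTCA in none of the 13 (7.71% of all). GC boxes (GGGCGG) stood in 8 of the 13 member windows against 45.0% of all, and CACCC, which KLF proteins bind, in 7 against 59.9%. Every motif was searched on both strands, and matches of different motifs could overlap. These matches describe letters in a window and not binding.

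**Figure D1:**
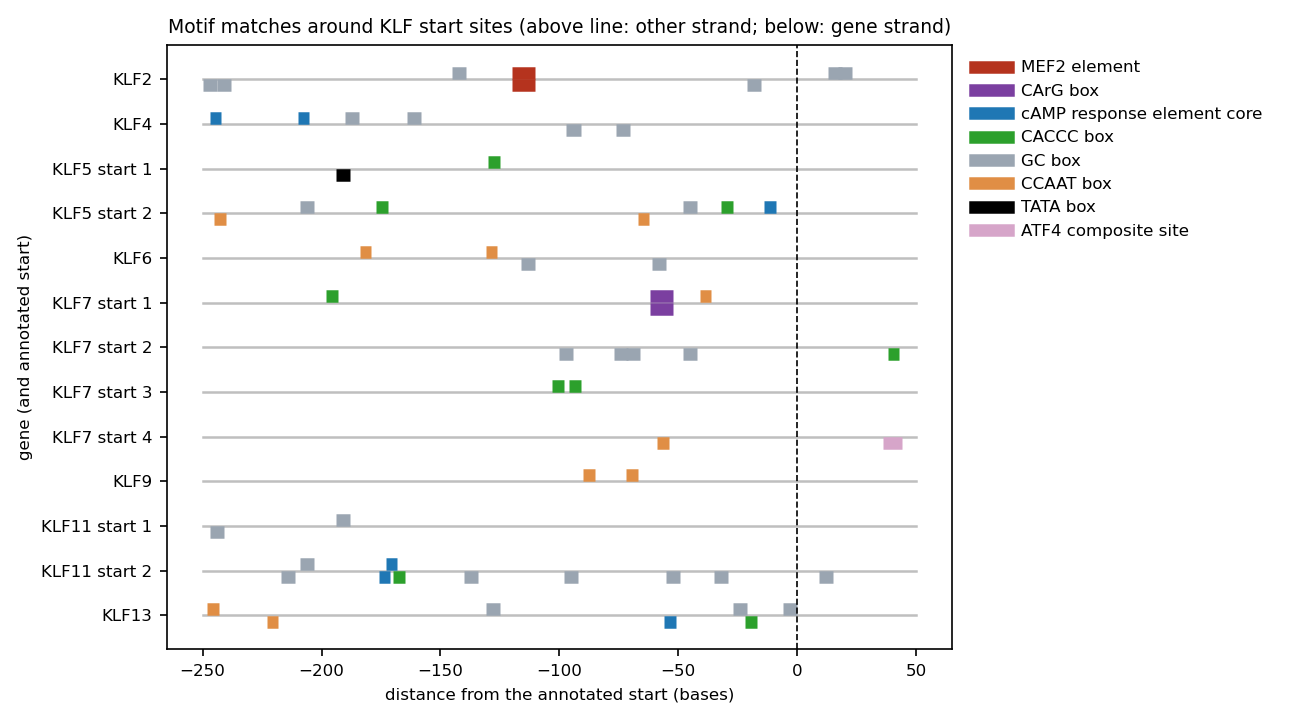
Positions of motif matches in 13 windows around annotated starts of 8 KLF genes; the x axis is the distance from the start in bases, each line is 1 start, and marks below or above the line are matches on the gene's strand or the other strand. The MEF2 element is seen for KLF2 alone and the CArG box for 1 start of KLF7 alone, while GC boxes are spread over 8 windows.

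Among the members described here, KLF6, KLF2 and KLF10 supplied most of the RNA in every group. Levels were compared between genes as reads per kilobase of summed exons (RPKM over exons), since the length behind the deposited RPKM is the whole gene with its introns for most genes. In the DMSO libraries KLF6 led with 30.3 ± 3.72 (SD, n = 3), followed by KLF2 at 14.98 ± 2.94 and KLF10 at 14.1 ± 1.47, whose libraries overlapped. KLF9 (7.17), KLF5 (6.43), KLF3 (6.06), KLF7 (4.87), KLF11 (4.21) and KLF13 (3.74) came next, with overlap between KLF9 and KLF5 and between KLF5 and KLF3. KLF4 was lowest at 0.336 ± 0.160.

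In the untreated libraries the order began with KLF6 at 38.8 ± 2.17 (SD, n = 2), KLF10 at 20.1 ± 0.735 and KLF2 at 11.2 ± 1.18, which did not overlap. The lower neighbours KLF7 and KLF3, and KLF3 and KLF9, overlapped. This order leaves out the other KLF genes. In the untreated libraries KLF16 had a mean of 13.3, above that of KLF2, KLF17 one of 11.1 and KLF12 one of 4.52. After 2 h of merbarone KLF6 stood at 87.9 ± 3.43, KLF2 at 62.8 ± 3.16 and KLF10 at 61.6 ± 9.49, the last pair again overlapping, and KLF4 was still the lowest at 2.81 ± 0.198. The sum over the 10 genes was 92.2 ± 4.66 with DMSO and 98.0 ± 6.82 with merbarone for 30 min (n = 3 each), whose ranges overlapped. It was 109 ± 2.44 in untreated cells and 257 ± 18.6 after 2 h (n = 2 each). The share of KLF2 in this sum went from 10.4% in untreated cells to 24.4% after 2 h and that of KLF10 from 18.6% to 23.9%, while KLF6 had 35.7% and 34.1%.

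**Figure D2:**
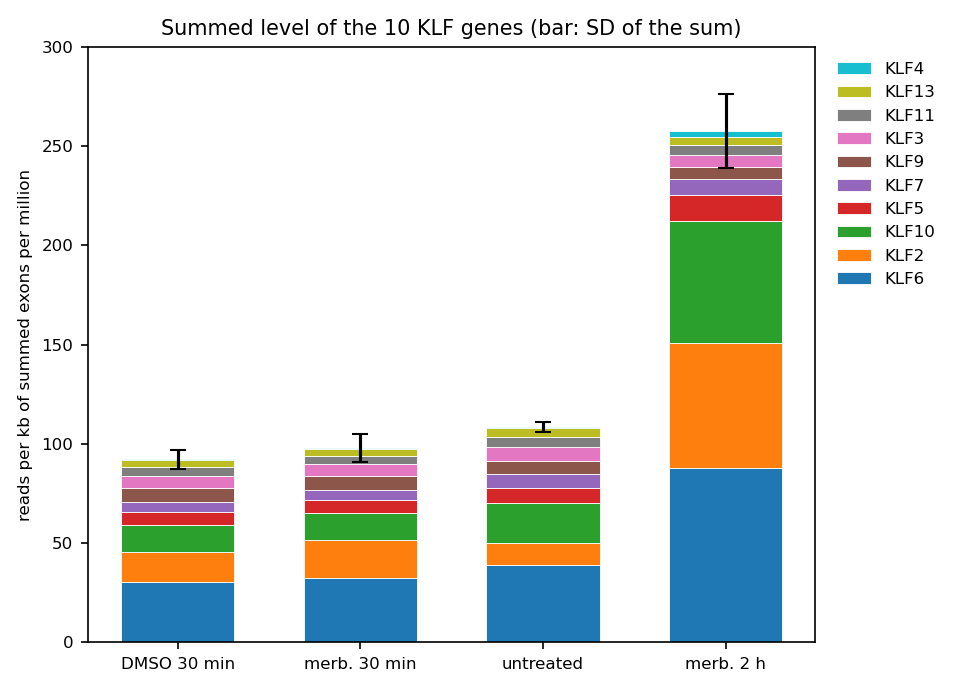
Summed level of the 10 KLF genes in each group, in reads per kilobase of summed exons scaled to the library total (linear axis from 0); colours stack the group means of the genes and the black bar is the SD of the sum over 3 or 2 libraries. The sum stands at 257 after 2 h of merbarone and between 92.2 and 109 in the other groups, and KLF6, KLF2 and KLF10 make up most of each column.

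After 2 h of merbarone 5 members rose against untreated cells: KLF2, KLF4, KLF5, KLF6 and KLF10. On the deposited scale the ratios of mean RPKM were 5.59, 8.06, 1.71, 2.27 and 3.06. No member fell. Tests used log2(RPKM + 1) in limma with Benjamini-Hochberg adjustment over all genes averaging 1 RPKM or more, and genes with an adjusted p under 0.05 are said to have passed, risen or fallen. KLF2, KLF5, KLF6 and KLF10 passed upwards there, and KLF3, KLF9 and KLF11 did not pass, where 5.98% of the 6620 tested genes were higher and 7.1% lower. KLF4 reached that level only through its treated libraries and is left out of this count, and KLF7 and KLF13 lay under it. All 10 members could be tested with limma's voom on the whole reads recovered from the RPKM values, where KLF4 and the other 4 were higher and 0 lower, against 7.94% higher and 6.09% lower among 13440 genes. The median log2 fold change in that fit was 0.48 over the 10 members and 0.00027 over all genes.

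Among the factors with activation domains, KLF2 (ENSG00000127528, chr19:16435637-16439496, plus strand, GRCh37), which holds endothelial cells and T cells in quiescence, changed most on the log2(RPKM + 1) scale. It was at 9.59 and 11.1 RPKM in the untreated libraries (391 and 407 reads) and at 59.9 and 55.8 after merbarone (2510 and 2226 reads). Both treated libraries lay at about the same level, far above both controls. Its log2 fold change was 2.38 ± 0.11 (SE, n = 2 and 2, limma adjusted p = 7.48e-06), the 6th largest rise of 6620 genes. It was 2.49 with voom (95% interval 2.23 to 2.74).

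KLF4 (ENSG00000136826, chr9:110247133-110252763, minus strand), a factor of epithelial differentiation and of reprogramming to pluripotency, had the largest ratio from the lowest base. The untreated libraries held 14 and 18 reads (0.187 and 0.267 RPKM) and the treated ones 134 and 141 (1.74 and 1.92 RPKM). The groups were far apart, but the control level rests on few reads. The log2 fold change with voom was 3.00 (95% interval 2.37 to 3.63, adjusted p = 6.22e-07), the 12th largest rise of 13440 genes.

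KLF6 (ENSG00000067082, chr10:3818188-3827473, minus strand), a widely expressed factor known for inducing the cell cycle inhibitor CDKN1A, was at 26.6 and 24.6 RPKM untreated and at 59.7 and 56.5 RPKM after 2 h. All its libraries within a group lay close together. The log2 fold change was 1.15 ± 0.11 (SE, limma adjusted p = 2.28e-04).

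KLF5 (ENSG00000102554, chr13:73629114-73651679, plus strand), which promotes proliferation in gut epithelium and smooth muscle, had the smallest rise of the 5. Its values were 1.23 and 1.30 RPKM untreated and 2.36 and 1.96 after 2 h, with no overlap and the wider spread among treated libraries. The log2 fold change was 0.48 ± 0.081 (SE, limma adjusted p = 0.00693).

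KLF7 (ENSG00000118263, chr2:207938861-208038580, minus strand), known from neuronal outgrowth, did not pass. Its values were 0.764 and 0.677 RPKM untreated and 0.805 and 0.828 after 2 h, so both treated libraries were higher by a small step. The voom log2 fold change was 0.18 (95% interval -0.060 to 0.42, adjusted p = 0.316).

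KLF3 (ENSG00000109787, chr4:38665818-38703138, plus strand), the CtBP-binding repressor known from red cell and fat cell differentiation, did not pass either. Its untreated libraries were at 1.46 and 1.07 RPKM and its treated libraries at 1.08 and 1.07. The groups overlapped, and the first untreated library stood above the other 3. The log2 fold change was -0.12 (95% interval -0.32 to 0.073, limma adjusted p = 0.362). Without the second untreated library it was -0.25 with an adjusted p of 0.0154, and without the first it was 0.0044.

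Of the SIN3A-binding factors, KLF10 (ENSG00000155090, chromosome 8, minus strand), first described as a gene that TGF-beta induces early, rose alone. It was at 10.5 and 11.1 RPKM in untreated cells and at 36.6 and 29.4 after 2 h, and the lower treated library was still far above the controls. The log2 fold change was 1.52 ± 0.12 (SE, limma adjusted p = 9.67e-05), the 24th largest rise of 6620 genes.

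KLF11 (ENSG00000172059, chr2:10182976-10194963, plus strand), a second TGF-beta-inducible factor and the closest relative of KLF10, was at 2.23 and 1.88 RPKM untreated and at 2.22 and 1.94 after 2 h. The groups covered nearly the same range, with a log2 fold change of 0.011 (95% interval -0.19 to 0.21, limma adjusted p = 0.945). KLF9 (ENSG00000119138, chr9:72999520-73029573, minus strand), a known target of glucocorticoid and thyroid hormone receptors, was at 1.13 and 1.13 RPKM untreated and at 1.12 and 1.00 after 2 h. Its log2 fold change was -0.049 (95% interval -0.19 to 0.095, limma adjusted p = 0.636).

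KLF13 (ENSG00000169926, chr15:31619038-31727868, plus strand), known from chemokine transcription in T cells, was at 0.381 and 0.403 RPKM untreated and at 0.349 and 0.324 after 2 h, both treated libraries being lower. It did not pass with voom, at a log2 fold change of -0.22 (95% interval -0.48 to 0.046, adjusted p = 0.265). By class, with voom, 4 of 5 factors with activation domains, 0 of 1 CtBP-binding and 1 of 4 SIN3A-binding factors rose, beside 7.94% of all genes.

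**Figure D3:**
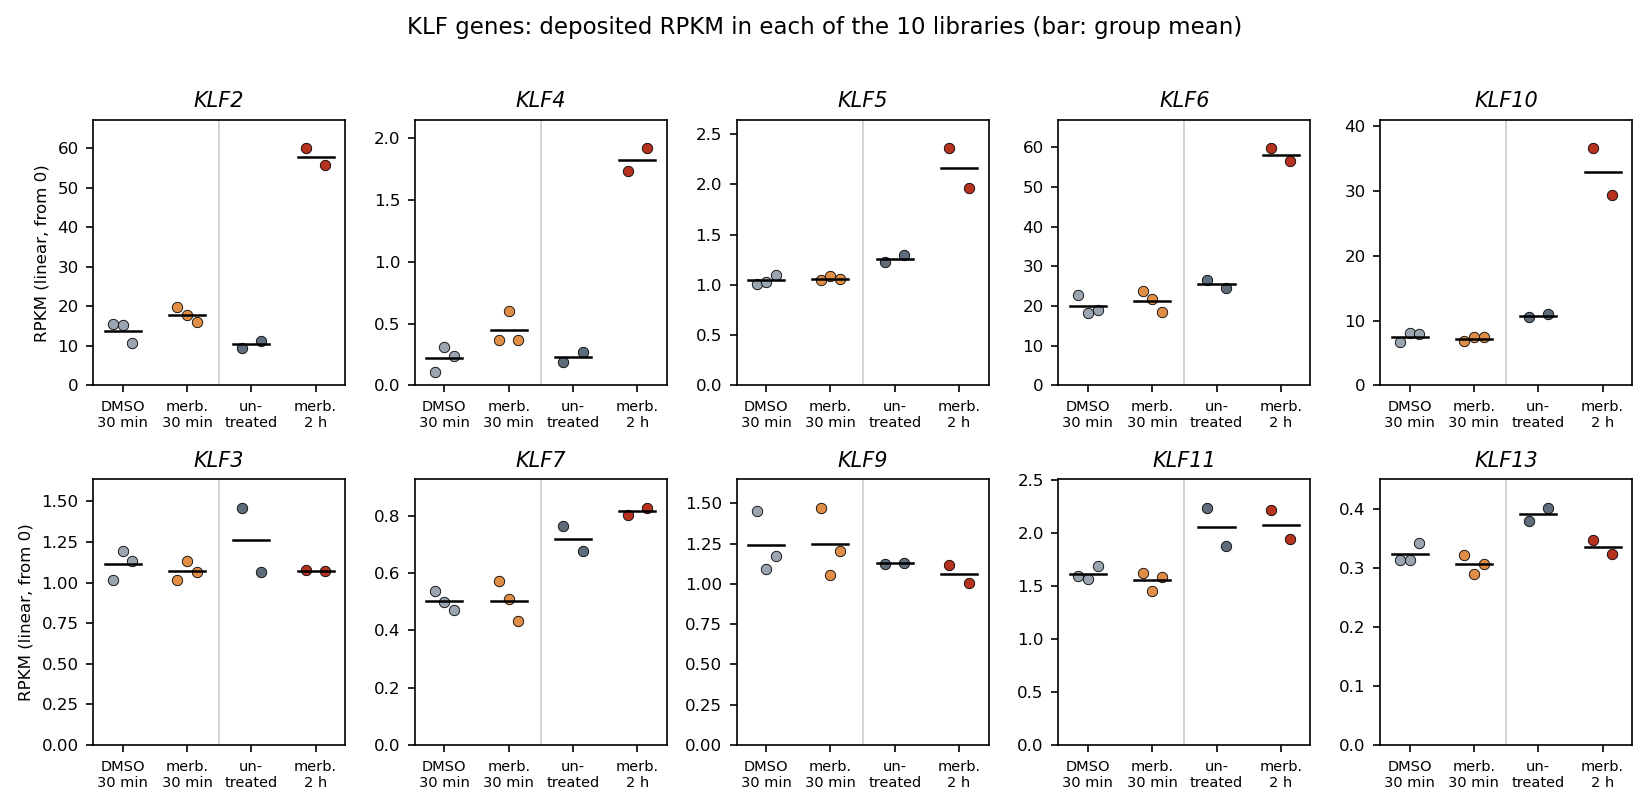
Deposited RPKM of each KLF gene in each of the 10 libraries (linear axes from 0, 1 scale per gene); points are libraries, the black bar is the group mean, and the grey line separates the 2 experiments. The 2 h merbarone libraries of KLF2, KLF4, KLF5, KLF6 and KLF10 stand above all 8 others, those of KLF3 and KLF11 overlap the untreated libraries, and those of KLF9 and KLF13 lie a little below them.

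Without regard to a test, both treated libraries lay above both untreated ones for 6 members (the 5 that rose and KLF7) and below them for KLF9 and KLF13. Among the genes tested with voom such separation was common, at 28.8% higher and 29.4% lower, and 2 against 2 libraries give an exact permutation p of at least 0.333. With no filter on low values, KLF5 (adjusted p = 0.117), KLF6 (0.0503) and KLF10 (0.0692) no longer passed in limma, and KLF2 and KLF4 did. That setting passed few genes of any kind, 53 of 16810. None of the 10 genes overlaps another gene of the tables in the GRCh37 annotation.

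At 30 min of merbarone no member passed. KLF2 and KLF4 were the 2 members whose 3 treated libraries all lay above all 3 DMSO libraries, and no member lay below. Such separation upwards held for 1.28% of the genes tested with voom. A share of 0.0154% of 6500 genes (1 gene) passed in limma and 0.00714% of 14012 with voom (1 gene), so the test called nearly nothing at this time. In limma 0 of the 7 members tested had an unadjusted p under 0.05, and with voom 2 of 10 did, again KLF2 and KLF4. Among all genes 24 of 6500 and 41 of 14012 did. These fits ignore the replicate number. Blocked on it, KLF2 had an unadjusted limma p of 0.00192, with 208 of 6500 genes under 0.05. Blocked voom gave unadjusted p of 2.40e-04 for KLF2 and 0.00243 for KLF4, with 428 of 14012 genes under 0.05.

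KLF2 was at 15.6, 15.2 and 10.7 RPKM with DMSO and at 19.9, 17.7 and 16.1 with merbarone (libraries 1, 2 and 3). The third DMSO library was the low one, and the lowest treated library was just above the highest control. Same-numbered libraries, which deviated together in this experiment, gave ratios of 1.28, 1.17 and 1.50, higher in 3 of 3. The log2 fold change was 0.36 ± 0.15 (SE, limma adjusted p = 1.00). Without the third DMSO library it was 0.20. Blocking on the replicate number in voom gave an adjusted p of 0.198.

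KLF4 had 16, 54 and 51 reads with DMSO (0.107, 0.312 and 0.237 RPKM) and 70, 127 and 73 with merbarone (0.369, 0.602 and 0.370 RPKM). The second library was the highest in either group and the first DMSO library the lowest. Ratios of same-numbered libraries were 3.46, 1.93 and 1.56. The voom log2 fold change was 1.09 (95% interval 0.14 to 2.03, adjusted p = 1.00), the 13th largest of 14012 genes, and it was 0.69 without the first DMSO library. For a single gene, 3 against 3 libraries cannot give an exact permutation p under 0.10.

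The 3 other members that later rose showed no such separation at 30 min. KLF6 was at 22.9, 18.3 and 18.9 RPKM with DMSO and at 23.8, 21.8 and 18.5 with merbarone, with a log2 fold change of 0.086 (95% interval -0.20 to 0.38). KLF10 was at 6.66, 8.11 and 7.91 RPKM against 6.81, 7.46 and 7.48, with a log2 fold change of -0.050 (95% interval -0.25 to 0.15). KLF5 was at 1.01, 1.03 and 1.10 RPKM against 1.05, 1.08 and 1.06, with a log2 fold change of 0.011 (95% interval -0.071 to 0.094). In all 3 genes the treated libraries fell inside or across the DMSO range.

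The 5 members that did not pass at 2 h overlapped between the groups at 30 min. KLF3 ranged from 1.01 to 1.19 RPKM with DMSO and from 1.02 to 1.13 with merbarone, KLF9 from 1.09 to 1.45 and from 1.06 to 1.47, and KLF11 from 1.56 to 1.69 and from 1.45 to 1.62. KLF7 ranged from 0.472 to 0.537 RPKM and from 0.432 to 0.572, and KLF13 from 0.315 to 0.343 and from 0.290 to 0.322. Over the 10 members the median voom log2 fold change was 0.0026, and it was -0.0021 over all genes.

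**Figure D4:**
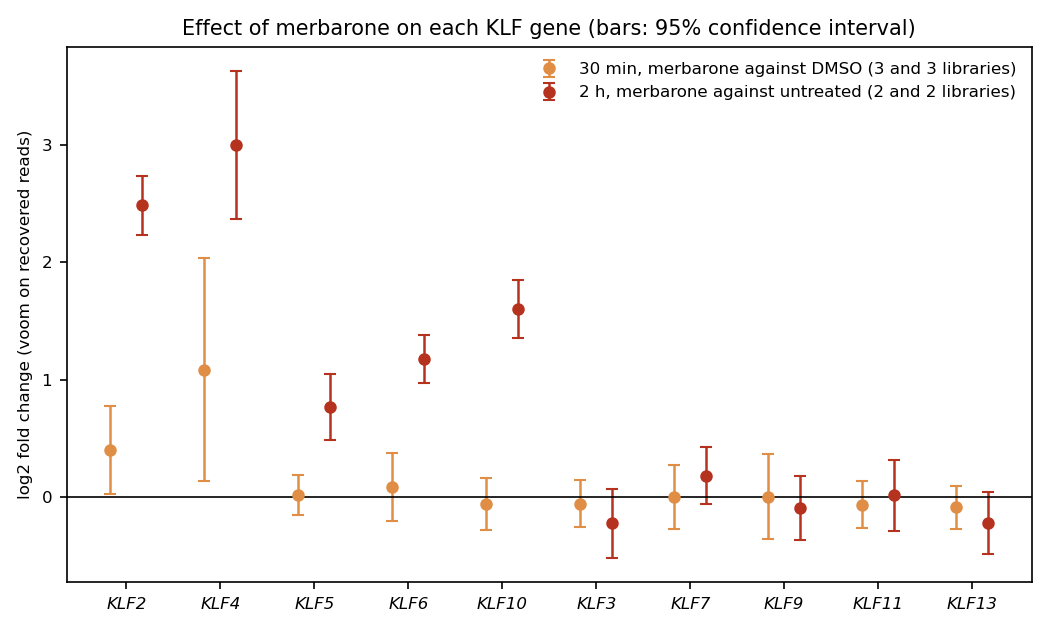
Log2 fold change of each KLF gene from voom on recovered reads at 30 min (merbarone against DMSO, 3 and 3 libraries) and at 2 h (merbarone against untreated, 2 and 2 libraries), with 95% confidence intervals before any adjustment. At 2 h the values run from 3.00 for KLF4 to -0.22 for KLF3 and KLF13, and at 30 min KLF4 (1.09) and KLF2 (0.40) stand above 0.

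The 2 h effect was larger than the 30 min effect for 4 of the 7 members tested on this point, KLF2, KLF5, KLF6 and KLF10, where 1.27% of 6558 genes had a higher effect at 2 h. The differences of the effects on the log2(RPKM + 1) scale were 2.01 ± 0.22 (SE) for KLF2 (limma adjusted p = 0.00180) and 1.57 ± 0.15 for KLF10 (adjusted p = 0.00129). They were 1.06 ± 0.17 for KLF6 (adjusted p = 0.0179) and 0.47 ± 0.080 for KLF5 (adjusted p = 0.0230). With voom 3 members passed (0.439% of 13900 genes): KLF5 had an adjusted p of 0.0700 and KLF4, at a difference of 1.92, one of 0.259. When voom was blocked on the replicate number 5 passed, KLF4 among them at 1.98 (adjusted p = 0.00434), where 7.47% of genes did.

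The call for KLF5 was lost when any 1 of 6 libraries was left out (adjusted p 0.0580 to 0.0766), and that for KLF6 without the second untreated library (0.0890) or without either 2 h merbarone library (0.111 and 0.0844). With voom, 0 members passed without the first untreated library (adjusted p 0.113 for KLF2 and 0.0785 for KLF10), and KLF10 alone did without the second (0.0834 for KLF2). Exposure time, solvent and experiment changed together in this contrast and cannot be told apart. KLF3, KLF9 and KLF11 had differences of -0.094, -0.051 and 0.047 (limma adjusted p = 0.711, 0.888 and 0.862), with 95% intervals of -0.32 to 0.14, -0.33 to 0.22 and -0.17 to 0.26.

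The control groups of the 2 experiments had different KLF levels, given here with no test because vehicle, experiment and depth differ together. KLF10 was at 7.56 ± 0.787 RPKM with DMSO (n = 3) and at 10.8 ± 0.394 untreated (n = 2), KLF6 at 20.04 ± 2.46 and 25.6 ± 1.44, and KLF7 at 0.503 ± 0.033 and 0.720 ± 0.061. KLF5, KLF11 and KLF13 were also higher in untreated cells in every library, while KLF2, KLF3, KLF4 and KLF9 overlapped. The share of all genes that separate in this way between the controls was not determined, so the separation is not read as a trait of the KLF genes. Markers differed as well: the 5 epithelial markers summed to 17.7 to 22.7 RPKM with DMSO and to 64.8 to 72.6 untreated, and the 9 pigment epithelium markers to 9.03 to 11.3 and 28.1 to 29.0. The differences between the sums lay mainly in KRT18 (means of 17.0 with DMSO and 59.5 untreated) and BEST1 (2.58 and 18.8). PMEL (4.11 and 4.87), OTX2 (3.23 and 4.48) and MITF (0.232 and 0.326) differed less. Within the 2 h experiment these sums lay closer together, at 64.8 to 72.6 and 73.3 to 79.2 RPKM for the epithelial list and at 28.1 to 29.0 and 25.1 to 28.9 for the pigment epithelium list. Single markers also changed at 2 h. OTX2 fell by 0.32 on the log2 scale (limma adjusted p = 0.0349). Of the 4 mesenchymal markers 1 passed, FN1, which rose from 76.4 ± 1.96 to 169 ± 13.9 RPKM (SD, n = 2 each, limma adjusted p = 4.12e-04). Its mean with DMSO was 197 RPKM, above both. Means untreated and after 2 h were 732 and 666 RPKM for VIM, 1.12 and 1.33 for CDH2 and 22.8 and 23.3 for ACTA2. With DMSO ACTA2 was at 3.33. The part of these markers in the KLF values was not tested.

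Members that rose share high 2 h libraries, so high correlations among them over the 10 libraries follow from how they were chosen. On log2(RPKM + 1) values centred on the controls of each experiment, the Pearson correlation with KLF2 was 0.973 for KLF6, 0.965 for KLF4, 0.948 for KLF10 and 0.948 for KLF5, and that between KLF5 and KLF10 was 0.990. Among the members that did not pass, the correlation with KLF2 was 0.687 for KLF7, 0.072 for KLF11, -0.16 for KLF9, -0.62 for KLF3 and -0.83 for KLF13. These correlations and the likeness that follows describe 10 libraries that include the 2 h libraries used for the calls. They add no support to those calls. Of 6557 genes, the most like KLF2 by this measure were PLK3 (0.994), a stress-inducible polo-like kinase, BHLHE40 (0.985), a repressor of clock genes, and ENSG00000268175 (0.985), for which no symbol was found. Their log2 fold changes at 2 h were 2.06, 1.93 and 1.16, beside 2.38 for KLF2.

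The 5 members that rose had gene lengths of 3059 to 22572 bp in the deposited values, against 11993 bp for KLF11 and 30050 to 108854 bp for KLF9, KLF3, KLF7 and KLF13. Over all genes tested with voom at 2 h, 7.62% of those up to 22572 bp long were higher and 8.13% of the longer ones. The shares lower were 10.6% and 3.30%, and the median log2 fold changes -0.085 and 0.043. The cut was set at the longest member that rose. The rest of the family gave fewer calls: of 15 other KLF and SP genes in the tables, 5 were tested in limma and 0 passed at 2 h (1 at an unadjusted p under 0.05). With voom, where 8 were tested, KLF12 rose (0.42, adjusted p = 0.0454). SP6 was also under the threshold (1.34, voom adjusted p = 0.0302), but it had 7 to 10 reads untreated and 22 to 25 after 2 h. It reached the filter of 10 mean reads only through its treated libraries and is not counted as a rise. KLF17 and KLF16 had limma log2 fold changes of -0.23 and -0.13 (adjusted p = 0.0923 and 0.334).

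Genes that act upstream of KLF members were read from fixed lists. Of 10 genes of the ERK5-MEF2 pathway, the known route to KLF2 and KLF4 transcription, 0 of 4 tested passed in limma at 2 h (1 at an unadjusted p under 0.05). With voom 2 of 10 rose, the kinase MAP3K2 (0.56, adjusted p = 0.00522) and the factor MEF2A (0.34, adjusted p = 0.0431). Of 10 TGF-beta receptors and SMAD genes, 2 of 6 tested rose in limma, the inhibitors SMAD7 (0.68, adjusted p = 0.00167) and SKIL (0.42, adjusted p = 0.0207), and the receptor TGFBR2 fell (-0.28, adjusted p = 0.0464).

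KLF9 is known to be induced by glucocorticoids, and it did not pass. Of 8 other glucocorticoid response genes, 5 of 7 tested with voom rose at 2 h, the largest rises being those of DUSP1 (1.98), TSC22D3 (1.46), PER1 (1.39) and SGK1 (1.25). In limma DUSP1 rose by 1.91, TSC22D3 by 1.04 and ERRFI1 by 0.71, and PER1 reached the filter only through its treated libraries (0.551 RPKM untreated, 1.45 after 2 h). These genes are also known to answer to stress and growth signals. The 5 ubiquitin ligases known to act on KLF5 gave 0 calls at 2 h (1 tested in limma, 5 with voom, 0 with an unadjusted p under 0.05 in either).

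Of 10 corepressor and coactivator genes, HDAC1 fell (-0.25, limma adjusted p = 0.0447) and 4 others tested did not pass. With voom HDAC1 fell (-0.39) and the coactivator CREBBP rose (0.58). Of 13 genes reported as KLF targets that the tables hold, 3 of 9 tested rose in limma and 1 fell. CDKN1A, the p21 inhibitor, went from 36.2 ± 1.69 to 106 ± 23.5 RPKM (SD, n = 2 each, log2 fold change 1.50), and THBD, thrombomodulin, rose by 0.60 on the log2 scale. CCNB1, a mitotic cyclin, fell by 0.46. With voom 5 of 12 rose and 1 fell, the largest rise being that of the growth factor PDGFA at 1.62.

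In voom at 2 h the median log2 fold change was 1.25 for the glucocorticoid list, 0.20 for the TGF-beta list, 0.18 for the ERK5-MEF2 list, 0.043 for the reported targets, 0.026 for the other KLF and SP genes, -0.087 for the corepressors and coactivators and -0.095 for the ligases, beside 0.48 for the 10 members and 0.00027 for all genes. At 30 min 0 genes of these 7 lists passed in limma (34 tested) or voom (62 tested), and 1, DUSP1, had an unadjusted p under 0.05 in both. TOP2A and TOP2B, the enzymes that merbarone inhibits, had log2 fold changes of 0.035 and -0.023 at 2 h and did not pass.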

How the data were processed

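Each library has its own deposited table of RPKM by Ensembl gene identifier (unit per the file headers), not log transformed. The submitters' processing notes name Bowtie 1.2.0, DESeq2, edgeR and deepTools 2.4.1 and the build hg19 (GRCh37), with no role for each. The read counter and the annotation are not given in the sources used here. RPKM values of a gene are whole multiples of what 1 read is worth, and whole reads were recovered in this way for all 17680 genes detected in at least 1 library (100%, tolerance 0.0001 reads). The length this gives is within 1% of the whole gene span for 74.9% of 17234 genes.

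Effects were fitted with limma 3.58.1 (R 4.3.3) on log2(RPKM + 1), with eBayes(trend=TRUE), for genes averaging 1 RPKM or more across the libraries fitted, each experiment on its own. The difference of the effects was a contrast over all 10 libraries. Tests were two-sided with Benjamini-Hochberg adjustment over all tested genes and a threshold of 0.05. Voom, run on the recovered reads of genes averaging 10 reads or more, was an alternative. It served as the test for members under the RPKM filter and for KLF4, which passed that filter only through its treated libraries. The further settings were no filter or 5 RPKM, a pseudocount of 0.1, median and quantile scaling, no trend, the replicate block, 1 fit of all libraries and leaving out each library. Summed exon length (GENCODE 44 lifted to GRCh37) and voom without each library were added after the data were seen. The scripts were tested on simulated data.

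Deviations of same-numbered libraries from their group means correlated at 0.925, 0.646 and 0.605 in the 30 min experiment. The main fits did not use these pairs, and the replicate block was run as an alternative. With 2 numbers at 2 h the correlation was 0.300.

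The text names all 10 members, up to 4 genes per list by the size of their change at 2 h, and the 3 genes most like KLF2. Markers and the drug's targets are named besides. The members and lists were chosen with earlier results of these data known. Promoter windows came from RefSeq. Sequence of KLF10 is not reported here. A gene of the lists is counted but not reported here by name.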

Additional observations from a re-analysis of the deposited data

Results flagged for a closer look

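The effect of merbarone on 4 members differed between the experiments by the test of the difference itself (limma contrast over 10 libraries, 2 h effect minus 30 min effect on the log2(RPKM + 1) scale). It was 2.01 for KLF2, 1.57 for KLF10, 1.06 for KLF6 and 0.47 for KLF5. Both 2 h merbarone libraries were higher than both untreated libraries in each of these genes. At 30 min this separation was seen for KLF2 and not for KLF10, KLF6 or KLF5. Exposure time, solvent and experiment cannot be told apart in these differences. Groups of 2 and 3 libraries were not tested for libraries that stand apart.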

How the results depend on the processing

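At 2 h the number of members called was 5 in limma, KLF4 included, though it reached the filter only through its treated libraries. The number was also 5 with each alternative except no filter (2), a mean of at least 5 RPKM (3 tested, 3 called) and all 10 libraries in 1 fit (4 of 7 tested). Among all genes 866 of 6620 passed in the main fit, 53 of 16810 with no filter, 397 of 2233 with at least 5 RPKM and 599 of 6558 in the 1 fit. Leave-one-out fits are not part of this 2 h count, since they leave 1 library in a group. At 30 min the number of members called was 0 under every alternative run. The members whose effects differed numbered 4 in limma and 3 with voom, and without 1 library each 2 to 4 in limma and 0 to 3 with voom. At 2 h KLF5 lost its voom call without the first merbarone library (adjusted p = 0.0502). The replicate block changed no member call at 30 min or 2 h, and in the difference it added those of KLF4 (1.98, adjusted p = 0.00434) and KLF5 (0.76, adjusted p = 0.00169) with voom.

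Counts over all genes moved more. At 30 min 1 gene was called, against 0 with no filter, 2 with at least 5 RPKM, median scaling, quantile normalization or all libraries in 1 fit, 8 with the replicate block, 13 with the block in voom and 0 to 2 without 1 library in limma or voom. At 2 h 866 genes were called, against 53 with no filter, 397 with at least 5 RPKM, 2129 with the replicate block, 1886 with voom, 3487 with the block in voom, 1513 with exon length and without 1 library 328 to 2464 in limma and 528 to 4123 with voom. For the difference 107 were called, against 361, 36, 1255, 66 and 1996 with no filter, at least 5 RPKM, the block, voom and voom with the block, and without 1 library 38 to 86 in limma and 5 to 66 with voom.

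The values that changed sign were ones not called in the comparison concerned. In leave-one-out fits the values ran from -0.00076 to 0.029 for KLF5, from -0.070 to 0.068 for KLF9 and, with voom, from -0.093 to 0.11 for KLF7 at 30 min, the negative ones for KLF9 being -0.046, -0.018 and -0.070 and those for KLF7 -0.00067, -0.048, -0.093 and -0.013. KLF9 was at -0.0021 with quantile normalization, and KLF7 at -0.0035 with the block in voom. At 2 h they ran from -0.25 to 0.0044 for KLF3 and from -0.073 to 0.096 (with -0.054 between) for KLF11. For the difference they ran from -0.22 to 0.032 for KLF3, from -0.12 to 0.021 for KLF9 and from -0.038 to 0.13 (with -0.019 between) for KLF11. The causes were not tested. Where 1 library is left out of a pair, the lone library is assumed to vary like the others. Depth limits KLF4, with 14 to 54 reads in the control libraries.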
